A study of Mus musculus with 18 samples.

Results

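The genes described here encode the subunits of the AMPA and NMDA receptors, the main fast glutamate receptors of excitatory synapses. They were chosen as a gene family by name, although earlier results of these data were known by then. The family holds 4 AMPA receptor genes (Gria1, Gria2, Gria3 and Gria4) and 6 NMDA receptor genes (Grin1, Grin2a, Grin2b, Grin2c, Grin2d and Grin3a). Every probe that carries one of these symbols in the platform annotation was taken. Of the 10 genes, 9 have a probe among the 45281 probes of the table, and Grin1, the subunit that NMDA receptors require, is not analysed here because no probe carries its symbol in the annotation used. The 9 genes have 22 probes, of which 16 probes of 7 genes exceeded background in at least 4 arrays. For comparison, 10436 of the 19053 named genes had such a probe.

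Hippocampal RNA of 18 samples from C57Bl6/J mice was hybridised to Illumina mouse bead arrays, 1 array per sample. Mice were fed by hand each day from postnatal day 14 (P14) to P28, for 14 days, with a vehicle of sweetened condensed milk and olive oil or with the same vehicle holding cannabis extract at 20 mg/kg. P28 mice (4 vehicle, 4 cannabis) were killed 70 to 80 minutes after feeding began. Adult mice (5 vehicle, 5 cannabis, labelled P56) had also been through a series of behavioural tests that ended with the NMDA receptor channel blocker phencyclidine (PCP), with a 2-week washout before they were killed. Every adult group therefore carries testing and PCP as well as age, and these cannot be told apart. Whether the arrays come from different mice is not stated in the labels, and the errors and p-values cover the spread among these arrays only, part of which may be technical.

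AMPA receptors are tetramers of the GluA1 to GluA4 proteins, and they carry most of the fast excitatory current. GluA2, encoded by Gria2, is the subunit that makes the channel impermeable to calcium once its mRNA is edited. NMDA receptors combine GluN1 with GluN2 or GluN3 subunits, open only when glutamate binds and the membrane is depolarised, and admit the calcium that starts synaptic plasticity. In the rodent forebrain GluN2B predominates early in life and GluN2A is added as synapses mature. Cannabinoid receptors on presynaptic terminals lower glutamate release in the hippocampus, which is the background to asking whether the extract altered the receptor genes.

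All levels below are deposited log2 intensities, on which 1 unit is a doubling for bright probes. They were not background-subtracted: probes with no signal sit at about 6.77, and a probe counts as above background on an array where it exceeds 6.98. Differences of probes close to that level are therefore compressed, and levels of different probes are not compared with each other. Each gene is represented by its probe with the highest mean, and probes are numbered from the brightest to the dimmest. Group values are means ± SD over the arrays, listed in the order of their replicate numbers. Differences come from limma fitted to all 18249 probes above background, with the moderated SE, a 95% interval and Benjamini-Hochberg adjusted p over all of those probes. In bulk RNA fewer cells of a type and less RNA per cell cannot be told apart.

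Across the series, replicates numbered 4 and 5 (6 arrays) stood apart from those numbered 1 to 3 (12 arrays). The first principal component held 40% of the variance and separated these sets without overlap, and 4311 probes (23.6%) differed between them. No member's brightest probe did so. Among all 16 member probes, 3 were higher in replicates 4 and 5: probe 3 of Gria2 by 0.43 ± 0.13 (adjusted p = 0.0236), probe 3 of Gria3 by 0.11 ± 0.04 (adjusted p = 0.0492) and probe 2 of Gria4 by 0.12 ± 0.04 (adjusted p = 0.0374). What the numbers stand for is not given in the labels. The tissue label was checked against markers of hippocampal excitatory neurons, of which 6 genes were above background, and against markers of interneurons, 7 of 8 genes, with Lhx6 not above it.

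The first comparison asks what the extract had done to these genes at the end of dosing. At P28 no receptor subunit gene passed the test: limma called 0 of 7 members at an adjusted p of 0.05, where 0% of all probes were called, and 0 of 7 at an unadjusted p of 0.05, where 1.79% of all probes were. Of the 7 members, 3 were higher and 4 lower in cannabis-fed mice, and their median difference was −0.02, against −0.00054 over all genes tested. Their median absolute difference was 0.07, against 0.05 over all genes.

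Gria1, which encodes GluA1, the subunit whose phosphorylation and insertion accompany long-term potentiation, was at 12.58, 12.44, 12.63 and 12.78 in P28 vehicle mice (12.61 ± 0.14, n = 4). In P28 cannabis mice it was at 12.61, 12.79, 12.50 and 12.61 (12.63 ± 0.12, n = 4). The groups overlapped almost completely. The difference was 0.02 ± 0.09, and its interval of −0.17 to 0.21 corresponds to 0.891-fold to 1.15-fold. Because this probe lies far above background, that interval is little affected by compression. The other 3 probes of Gria1 gave differences of 0.14 ± 0.17, 0.17 ± 0.15 and 0.10 ± 0.15, all with overlapping groups.

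Gria2 read 12.13, 12.19, 12.26 and 12.44 in P28 vehicle mice (12.26 ± 0.13, n = 4) and 12.12, 12.02, 12.32 and 12.23 in P28 cannabis mice (12.17 ± 0.13, n = 4). The lowest array was a cannabis array and the highest a vehicle array, and the rest were interleaved. The difference was −0.08 ± 0.11, with an interval of 0.8-fold to 1.11-fold. Probe 2 gave −0.08 ± 0.18 and probe 3, in the opposite direction, 0.20 ± 0.23.

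Gria3, encoding GluA3, a partner of GluA2 in hippocampal receptors, was at 10.95, 11.05, 10.85 and 11.12 in P28 vehicle mice (10.99 ± 0.12, n = 4) and at 11.10, 11.14, 10.61 and 11.01 in P28 cannabis mice (10.97 ± 0.24, n = 4). One cannabis array, replicate 3, lay below all vehicle arrays, while 2 cannabis arrays exceeded 11.05. The difference was −0.02 ± 0.12 (interval −0.28 to 0.23). Among its other probes, probe 4 was not above background on any of the 4 P28 cannabis arrays and on 1 of the 4 vehicle arrays, so its difference of −0.11 ± 0.06 is bounded by the floor.

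Gria4, whose product GluA4 is found in the adult rodent hippocampus mainly in interneurons, was close to background throughout. Its brightest probe exceeded the background level on 15 of 18 arrays and gave 7.06, 6.93, 7.04 and 7.01 in P28 vehicle mice (7.01 ± 0.06, n = 4) and 7.10, 7.16, 7.05 and 7.03 in P28 cannabis mice (7.08 ± 0.06, n = 4). Cannabis arrays sat slightly higher, with overlap, at a difference of 0.07 ± 0.06. The second probe went the other way, −0.11 ± 0.07, and was above background on 3 of 4 vehicle and 0 of 4 cannabis arrays. Probe 3 was above background on 0 of 18 arrays. At this signal a change of Gria4 was not detectable unless it was large.

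Among the NMDA receptor genes, Grin2a encodes GluN2A, the GluN2 subunit of mature synapses. It read 7.52, 7.36, 7.39 and 7.55 in P28 vehicle mice (7.46 ± 0.09, n = 4) and 7.47, 7.22, 7.47 and 7.20 in P28 cannabis mice (7.34 ± 0.15, n = 4). Both groups hold arrays near 7.5, and the 2 lowest arrays were cannabis. The difference was −0.11 ± 0.13 (interval −0.38 to 0.15), and with the background removed by normexp it was −0.23, still uncalled. A second Grin2a probe was above background on 1 of 18 arrays.

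Grin2b encodes GluN2B, the GluN2 subunit of juvenile synapses with slower channel closing. In P28 vehicle mice it was at 10.15, 10.03, 9.96 and 10.17 (10.07 ± 0.10, n = 4), and in P28 cannabis mice at 10.21, 9.89, 10.24 and 10.01 (10.09 ± 0.17, n = 4). The cannabis arrays surrounded the vehicle arrays on both sides. The difference was 0.01 ± 0.10, with an interval of 0.879-fold to 1.16-fold. Its other 2 probes were above background on 0 of 18 arrays.

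Grin3a encodes GluN3A, an NMDA receptor subunit that is abundant in the juvenile rodent brain and lowers calcium entry. It varied most among the members: its pooled within-group SD of 0.31 exceeded that of 97.1% of all genes, whereas the other 6 lay between 0.07 for Gria4 and 0.20 for Grin2a. P28 vehicle arrays were at 10.05, 9.40, 9.93 and 9.81 (9.80 ± 0.28, n = 4) and P28 cannabis arrays at 9.63, 9.19, 9.62 and 9.80 (9.56 ± 0.26, n = 4). Replicate 2 was the lowest array of both groups. The difference of −0.23 ± 0.20 was the largest among the 7 members at P28, and its interval of −0.65 to 0.19 (0.636-fold to 1.14-fold) includes no change. Arrays of the same replicate number were treated as pairs at P28 in an alternative fit. Between them Grin3a was lower in cannabis mice in 4 of 4, by −0.41, −0.20, −0.30 and −0.01. Gria4, close to background, was higher in cannabis mice in 4 of 4, by 0.04, 0.23, 0.01 and 0.01. The other members had pairs in both directions. Grin3a cannot be judged by its 4 of 4, since the share over all genes was not computed and no label states a pairing. With the replicate number as a block its difference was −0.23 ± 0.18 (adjusted p = 1.00 in limma), and 0 members were called.

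Grin2c, encoding GluN2C, which is best known from cerebellar granule cells, ranged from 6.74 to 7.05 over the 18 arrays and exceeded background on 2 of them. Grin2d, encoding GluN2D, found in interneurons and in early development, ranged from 6.60 to 6.93 and exceeded background on 0 of 18 arrays. Neither was tested. Each has only 1 probe, and a probe at background does not bound the level of its gene. Probes 2 and 3 of Grin2b were also at background, while its probe 1 had a mean of 10.10.

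**Figure D1:**
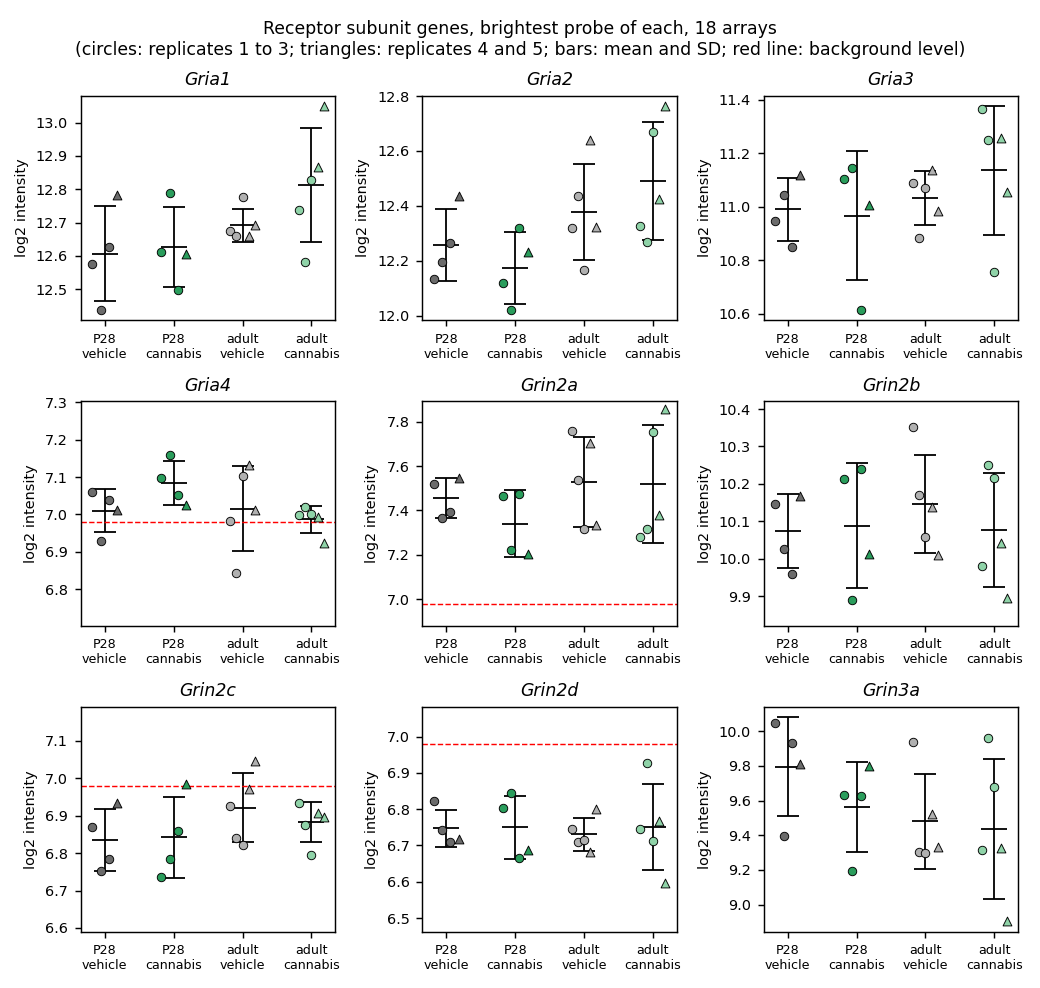
Log2 intensity of the brightest probe of 9 receptor subunit genes on 18 arrays, by group; circles are replicates 1 to 3, triangles replicates 4 and 5, bars the mean and SD, and the dashed red line the background level of 6.98. Cannabis and vehicle arrays of the same age overlap in every panel, Gria4 straddles the background level, and Grin2c and Grin2d lie around or below it.

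Choroid plexus markers differed between P28 arrays beside these values. All 7 of 7 marker genes were above background, and their mean level ranged from 7.27 to 8.85 in vehicle mice and from 7.78 to 9.86 in cannabis mice. The 7 genes were higher in cannabis mice by a median of 0.94, with 0 called by the same test. Their part in the members' differences was not tested.

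In adults the comparison asks whether anything remained after weeks without extract. No member passed here either: limma called 0 of 7 at an adjusted p of 0.05 (0% of all probes) and 0 of 7 at an unadjusted p of 0.05 (3.55% of all probes). None of the 16 member probes separated the adult treatments without overlap, where 0.362% of all probes did. The members' median difference was −0.01, against −0.0011 over all genes, with 3 of 7 higher. The members' median absolute difference was 0.07, against 0.05 for all genes.

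The 3 members that were higher were AMPA receptor genes. Gria1 was at 12.68, 12.66, 12.78, 12.66 and 12.69 in adult vehicle mice (12.69 ± 0.05, n = 5) and at 12.74, 12.58, 12.83, 12.87 and 13.05 in adult cannabis mice (12.81 ± 0.17, n = 5). Of the cannabis arrays, 3 lay above every vehicle array and 1 lay below them all. The difference was 0.12 ± 0.08 (interval −0.05 to 0.29; 0.968-fold to 1.22-fold). It was 0.01 within replicates 1 to 3 (3 arrays a group) and 0.28 within replicates 4 and 5 (2 arrays a group). The other Gria1 probes gave −0.08 ± 0.15, 0.09 ± 0.13 and 0.11 ± 0.14.

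Gria2 was at 12.32, 12.44, 12.17, 12.64 and 12.32 in adult vehicle mice (12.38 ± 0.18, n = 5) and at 12.33, 12.27, 12.67, 12.43 and 12.76 in adult cannabis mice (12.49 ± 0.22, n = 5). The 2 highest arrays were cannabis, and the other 3 fell among the vehicle arrays. The difference was 0.11 ± 0.10, with an interval of 0.933-fold to 1.25-fold. Probes 2 and 3 gave 0.13 ± 0.17 and −0.07 ± 0.20.

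Gria3 read 11.09, 10.88, 11.07, 11.14 and 10.99 in adult vehicle mice (11.03 ± 0.10, n = 5) and 11.37, 11.25, 10.76, 11.26 and 11.06 in adult cannabis mice (11.14 ± 0.24, n = 5). Here too the groups overlapped, with 3 cannabis arrays above all vehicle arrays and 1 below them, and the difference was 0.10 ± 0.11. Gria4 stayed at background level, at 7.02 ± 0.11 and 6.99 ± 0.04 (n = 5 each). Its difference was −0.03 ± 0.05.

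The 3 NMDA receptor genes tested had slightly lower means in adult cannabis mice, within the spread. Grin2a was at 7.76, 7.54, 7.32, 7.70 and 7.34 in vehicle mice (7.53 ± 0.20, n = 5) and at 7.28, 7.32, 7.75, 7.38 and 7.86 in cannabis mice (7.52 ± 0.27, n = 5), a difference of −0.01 ± 0.11. No cannabis array of Grin2a lay between 7.38 and 7.75, whereas vehicle arrays at 7.54 and 7.70 did. Grin2b was at 10.35, 10.17, 10.06, 10.14 and 10.01 (10.15 ± 0.13, n = 5) and at 9.98, 10.25, 10.22, 10.04 and 9.90 (10.08 ± 0.15, n = 5), a difference of −0.07 ± 0.09 with an interval of 0.842-fold to 1.08-fold. Grin3a was at 9.94, 9.31, 9.30, 9.52 and 9.33 in vehicle mice (9.48 ± 0.27, n = 5) and at 9.31, 9.96, 9.68, 9.33 and 8.90 in cannabis mice (9.44 ± 0.40, n = 5). The cannabis arrays of Grin3a held both the highest and the lowest adult value, and the difference was −0.04 ± 0.18 (interval −0.42 to 0.33).

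Marker lists moved in both directions beside these adult values, with 0 genes called by limma in any of them. Medians were higher in cannabis mice for oligodendrocytes (0.25, 6 of 7 genes higher), their precursors (0.20, 4 of 4), immature neurons (0.19, 6 of 6) and excitatory neurons (0.17, 5 of 6). They were lower for interneurons (−0.15, 0 of 7 higher) and choroid plexus (−0.07, 1 of 7 higher). The part of these lists in the members' differences was not tested.

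With both ages averaged, 0 of 7 members were called by limma (0% of all probes) and 0 of 7 had an unadjusted p under 0.05 (2.06% of all probes). Differences ran from −0.14 ± 0.13 for Grin3a to 0.07 ± 0.06 for Gria1. The intervals of the brighter subunit genes were narrow: 0.963-fold to 1.15-fold for Gria1, 0.904-fold to 1.13-fold for Gria2 and 0.894-fold to 1.08-fold for Grin2b. The test of whether the cannabis effect differed between adults and P28 called 0 of 7 members with limma, and 0 at an unadjusted p of 0.05, where 0% and 2.91% of all probes were called. Its largest estimates, adult effect minus P28 effect, were 0.20 ± 0.15 for Gria2 and 0.19 ± 0.27 for Grin3a.

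**Figure D2:**
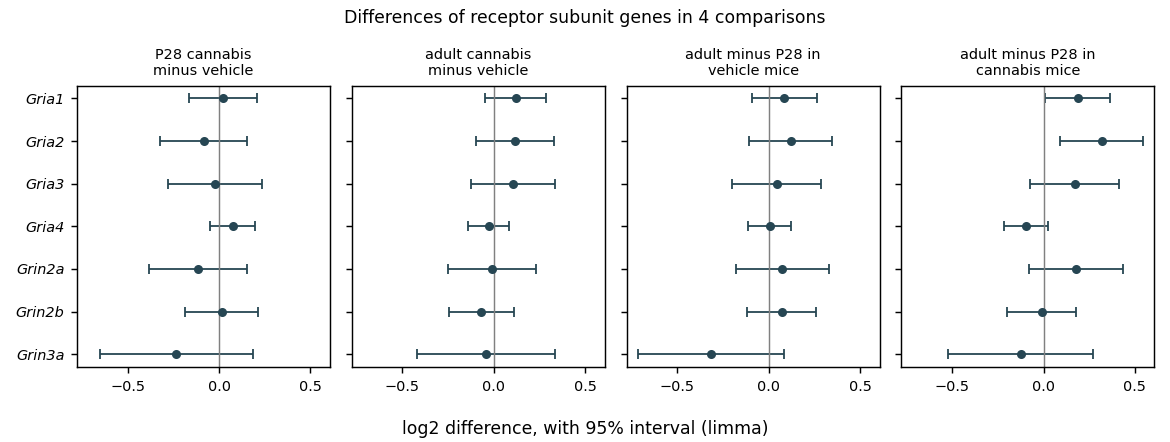
Log2 differences of the brightest probe of 7 subunit genes in 4 comparisons (cannabis minus vehicle at P28 and in adults, adult minus P28 in vehicle and in cannabis mice), with 95% intervals from limma. All intervals of the cannabis comparisons include 0, and among the age comparisons only those of Gria1 and Gria2 in cannabis mice lie above it.

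The balance between GluN2A and GluN2B messages is often followed through development, so the difference between members on the same array was also compared, for all 21 pairs of the 7 members. Grin2a minus Grin2b was −2.62 ± 0.04 in P28 vehicle mice (n = 4; −2.66 to −2.57) and −2.75 ± 0.06 in P28 cannabis mice (n = 4; −2.81 to −2.67). All vehicle arrays lay above all cannabis arrays, a shift of −0.13. It was the only one of the 21 pairs whose groups did not overlap at P28, where the groups of 1.59% of all single probes did not overlap. The share for differences between probes was not computed. The absolute value of such a difference has no meaning across probes, and only its shift between groups is read. The Grin2a probe had a mean of 7.47, nearer to background than the 10.10 of Grin2b, so its part of the shift is the more compressed. The pair rests on 1 probe per gene, since the second Grin2a probe was above background on 1 of 18 arrays. In the annotation that second probe is assigned to a reference transcript, and the Grin2a probe used here is not.

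In adults the groups overlapped for that pair, at −2.62 ± 0.11 in vehicle mice and −2.56 ± 0.34 in cannabis mice (n = 5 each). None of the 21 pairs separated vehicle from cannabis mice in adults, or adults from P28 in either treatment. For single probes these shares were 0.362% in adults, 6.2% between ages in vehicle mice and 2.7% between ages in cannabis mice. Between ages Grin2a minus Grin2b shifted by 0.0026 in vehicle mice and by 0.19 in cannabis mice, both with overlap. The non-overlap at P28 was picked out among the 21 pairs after their values were seen, so these values had no test.

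The age comparison asks how the subunit genes differed between the end of dosing and adulthood. In vehicle mice 0 of 7 members were called by limma at an adjusted p of 0.05, where 1.07% of all probes (195) were, and 0 of 7 had an unadjusted p under 0.05, where 13.5% of all probes did. In cannabis mice 0 of 7 were called, where 0.0274% of all probes (5) were, and 2 of 7 had an unadjusted p under 0.05, where 10.6% did. Averaged over treatments, 0 of 7 were called, where 4.96% of all probes (906) were, and 2 of 7 had an unadjusted p under 0.05, where 19.3% did. The comparisons by treatment and their average share arrays and are not separate evidence.

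Gria2 came closest. Its group means were 12.26 and 12.17 at P28 (vehicle and cannabis) and 12.38 and 12.49 in adults, so the order from low to high was P28 cannabis, P28 vehicle, adult vehicle, adult cannabis. Neighbours in that order differed by less than the spread of their arrays. The age difference was 0.12 ± 0.11 in vehicle mice and 0.32 ± 0.11 in cannabis mice (interval 0.09 to 0.54; adjusted p = 0.272). Averaged over treatments it was 0.22 ± 0.08, or 1.16-fold with an interval of 1.04-fold to 1.3-fold, and missed the threshold (unadjusted p = 0.0102, adjusted p = 0.111 in limma). Within replicates 1 to 3 the averaged difference was 0.19. Replicates 4 and 5 hold 1 array of each P28 group and gave 0.05 in vehicle and 0.36 in cannabis mice.

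For Gria1 the order was P28 vehicle, P28 cannabis, adult vehicle, adult cannabis. The means of neighbours differed by 0.02, 0.07 and 0.12, and the arrays of each pair of neighbours overlapped, although the adult vehicle arrays were close together (SD 0.05). Its averaged age difference was 0.14 ± 0.06 (interval 0.01 to 0.26; adjusted p = 0.217 in limma), with 0.09 ± 0.08 in vehicle and 0.19 ± 0.08 in cannabis mice. In vehicle mice it was 0.16 within replicates 1 to 3, whereas replicates 4 and 5, with only 1 P28 vehicle array against 2 adult arrays, gave −0.11. The 3 dimmer Gria1 probes gave larger averaged differences of 0.23 ± 0.11, 0.31 ± 0.10 and 0.30 ± 0.10, with adjusted p of 0.271, 0.0805 and 0.0989. Probe 3 had the lowest adjusted p among the 16 member probes in this comparison.

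Single arrays show the shape of that difference. Probe 3 of Gria1 was at 8.80, 9.12, 9.02 and 9.17 in P28 vehicle mice and at 9.56, 9.59, 9.19, 9.42 and 9.12 in adult vehicle mice, where 1 adult array fell inside the P28 range. Probe 4 was at 8.90, 9.02, 9.01 and 9.09 in P28 vehicle mice and at 9.41, 9.50, 9.21, 9.25 and 9.12 in adult vehicle mice, with no overlap. It was the only one of 16 member probes to separate the vehicle ages, where 6.2% of all probes did so. In cannabis mice the ages overlapped for probe 4, with adult arrays at 9.17, 9.07, 9.90, 9.16 and 9.75 against 9.24, 9.02, 9.21 and 8.93 at P28.

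The probes of Gria2 disagreed. The averaged age difference was 0.26 ± 0.12 for probe 2 (adjusted p = 0.265), close to the 0.22 of probe 1, but −0.07 ± 0.15 for probe 3, the probe that differed between the replicate sets. For Gria3 the differences were 0.11 ± 0.08, 0.04 ± 0.05, 0.12 ± 0.04 and 0.07 ± 0.04 from probe 1 to probe 4, all above 0 and none called, with a lowest adjusted p of 0.128 for probe 3. Over the 16 member probes, 13 were higher in adults, where 49.6% of all genes were. Of the 16, 5 had an unadjusted p under 0.05, against 19.3% of all probes, and limma called 0, against 4.96%. Probes of a gene share its RNA and are not replicates of one another.

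**Figure D3:**
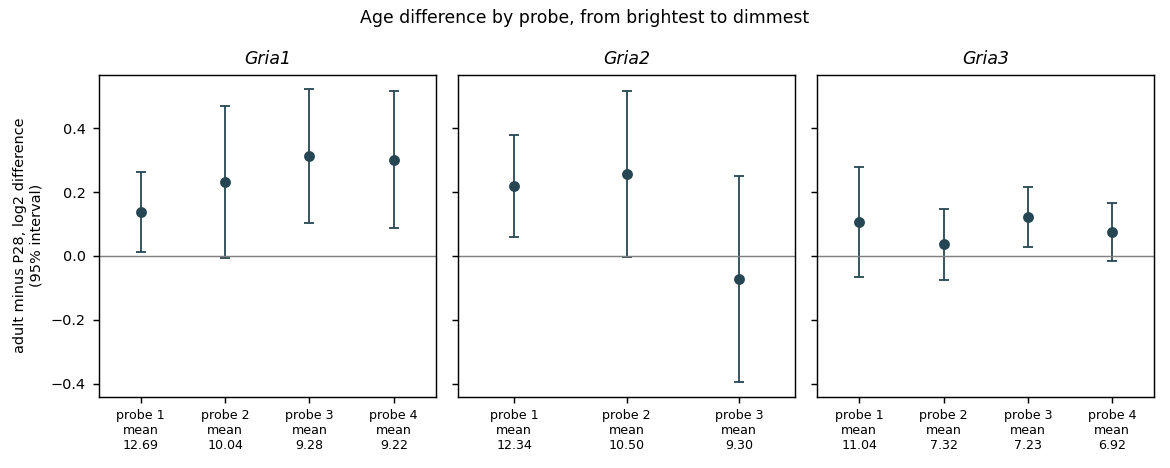
Adult minus P28 log2 difference, averaged over treatments, for each probe of Gria1, Gria2 and Gria3 above background, with 95% intervals from limma and the mean log2 intensity of the probe below it. The 4 probes of Gria1 lie above 0, from 0.14 to 0.31, whereas probe 3 of Gria2 lies at −0.07 beside 0.22 and 0.26 for its other probes.

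Of the other members, Grin3a had an averaged age difference as large as that of Gria2, in the opposite direction and with a larger error, and those of the rest were smaller. Gria4 averaged −0.05 ± 0.04, and in cannabis mice all 5 adult arrays (6.92 to 7.02) lay below the 4 P28 arrays (7.03 to 7.16), a difference of −0.10 ± 0.06 (adjusted p = 0.581) that its second probe did not share, at 0.08 ± 0.06. It was the only member whose brightest probe separated the ages in cannabis mice, where 2.7% of all probes did. The highest adult array, at 7.020, and the lowest P28 array, at 7.026, were almost equal and close to the background level of 6.98. Grin2a averaged 0.13 ± 0.09 and Grin2b 0.03 ± 0.06, with an interval of 0.93-fold to 1.12-fold for Grin2b. Grin3a was the only other member that was lower in adults, by −0.32 ± 0.19 in vehicle mice and −0.13 ± 0.19 in cannabis mice, averaging −0.22 ± 0.13 (interval −0.50 to 0.06). As a group, 5 of the 7 members were higher in adults, where 49.6% of all genes were, and 0 were called. Their median difference was 0.11 against −0.00066 over all genes, and their median absolute difference 0.13 against 0.07.

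Markers of oligodendrocytes, their precursors, immature neurons and choroid plexus differed between the ages beside these values. The mean level of oligodendrocyte markers (7 genes above background) ranged from 10.93 to 11.21 and from 10.72 to 11.48 in P28 vehicle and cannabis mice, and from 9.62 to 10.34 and from 9.93 to 10.59 in the adult groups. Of these 7 genes, 6 were called lower in adults, with a median of −0.83, as were 3 of 4 oligodendrocyte precursor genes, 3 of 6 immature neuron genes and 4 of 7 choroid plexus genes. Excitatory neuron markers ranged from 10.66 to 11.08 over all arrays, with 1 of 6 called lower. Values are relative to an equal distribution on every array, and the part of these lists in the members' age differences was not tested.

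Genes that build and anchor the receptors were examined as 4 lists. Of 16 genes for AMPA receptor auxiliary subunits and assembly factors, 9 were above background; of 28 for scaffold and trafficking proteins, 21; of 11 other ionotropic receptor genes, 7; and of 7 metabotropic receptors, 4. In both cannabis comparisons limma called none of these 41 genes. The smallest unadjusted p at P28 belonged to Grik1, a kainate receptor subunit, with a difference of −0.27 ± 0.13 (unadjusted p = 0.0578, adjusted p = 1.00), and in adults to Neto1, an auxiliary subunit of kainate receptors, with −0.25 ± 0.11 (unadjusted p = 0.0293, adjusted p = 1.00). Neto1 had pointed the other way at P28, at 0.18 ± 0.12.

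By median difference the lists stayed near 0 at P28: −0.05 for the auxiliary subunits, of which 3 of 9 were higher, −0.0094 for the scaffold proteins (9 of 21 higher), 0.05 for the other ionotropic genes (4 of 7) and 0.0050 for the metabotropic receptors (2 of 4). In adults the medians were 0.09 (7 of 9 higher), −0.01 (10 of 21), −0.03 (3 of 7) and 0.03 (3 of 4). Among auxiliary subunits, those with the smallest p were Cacng3, at −0.18 ± 0.11, and Cacng5, at −0.20 ± 0.17, both transmembrane regulators of the AMPA receptor, at P28. In adults they were Cnih3, a cornichon export factor of the AMPA receptor, at 0.23 ± 0.14, and Cpt1c, which aids its surface delivery, at 0.10 ± 0.07.

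With age, 1 of the 41 genes was called, where 4.96% of all probes were, so the lists as a whole gave no more calls than the background. Nptx1, a secreted pentraxin that gathers AMPA receptors at synapses, was higher in adults by 0.37 ± 0.10 averaged over treatments (adjusted p = 0.0484 in limma). Its arrays ranged from 8.75 to 8.97 in P28 vehicle mice (8.84 ± 0.10, n = 4), from 8.98 to 9.14 in P28 cannabis mice (9.07 ± 0.07, n = 4), from 8.82 to 9.50 in adult vehicle mice (9.29 ± 0.28, n = 5) and from 8.84 to 9.72 in adult cannabis mice (9.36 ± 0.34, n = 5). Adult arrays overlapped P28 arrays in both treatments. The call lies at the threshold: of the 18 fits that left out 1 array it was kept only in the 2 without adult vehicle replicate 1 or adult cannabis replicate 2, with adjusted p from 0.00728 to 0.10, and lost with the replicate number as a block (0.31, adjusted p = 0.0943).

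Its relative Nptx2 went the other way, −0.17 ± 0.06 (adjusted p = 0.0917), without passing. Lin7a, a scaffold protein of the synapse, was at −0.28 ± 0.08 (adjusted p = 0.0529), Cacng5 at −0.34 ± 0.11 (adjusted p = 0.0862) and Dlgap1, which links scaffold layers of the postsynaptic density, at 0.14 ± 0.05 (adjusted p = 0.0987). These 4 were picked for their small p after their values were seen. In vehicle mice and in cannabis mice taken separately, limma called none of the 41 genes.

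Within groups the subunit probes did not vary independently. Deviations of each array from its group mean were compared over the 18 arrays for all 120 pairs of the 16 probes, as a description, since all probes share the same RNA and array. Probes 2, 3 and 4 of Gria1 moved together, with Pearson r from 0.85 to 0.92, but followed probe 1 of the same gene with r of only 0.22, 0.18 and 0.35. They followed instead probe 2 of Gria2, with r from 0.84 to 0.88, and Grin2a, with r from 0.73 to 0.81. The pattern was also present within replicates 1 to 3 alone (12 arrays), at r from 0.88 to 0.94 among the 3 Gria1 probes and from 0.06 to 0.20 with probe 1.

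Of the 6 pairs of Gria3 probes, 1 ran in opposite directions. Deviations of probe 1 of Gria3 ran with its probes 3 (r = 0.46) and 4 (r = 0.21), but against its probe 2 (r = −0.54) and against probe 2 of Gria2 (r = −0.75), while probe 2 of Gria2 and probe 2 of Gria3 ran together (r = 0.78). A single array shows it: in adult cannabis replicate 3, probe 2 of Gria2 was at 11.32 against 10.32 to 10.88 in the other 4 arrays, probe 2 of Gria3 at 7.57 against 7.23 to 7.40, and probe 1 of Gria3 at 10.76 against 11.06 to 11.37. The annotation assigns probe 1 of Gria2 to a different reference transcript than probes 2 and 3. All probes of Gria1 share a reference transcript, and so do all probes of Gria3. The Grin3a probe has no transcript assigned. Probe sequences were not available, so which isoform each one reads was not examined.

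Between genes, by their brightest probes, Gria2 and Grin2a (r = 0.74) and Grin2b and Grin3a (r = 0.75) varied most alike of the 21 pairs. Of the other 10435 genes above background, 27 followed Gria2 more closely than Grin2a did, and 25 followed Grin2a more closely than Gria2 did. For Grin2b and Grin3a these numbers were 140 and 68. Within replicates 1 to 3 alone r was 0.74 and 0.79. Grin2a and Grin2b also reached 0.74 there, against 0.39 over the 18 arrays, so the order of the pairs differed in that set.

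**Figure D4:**
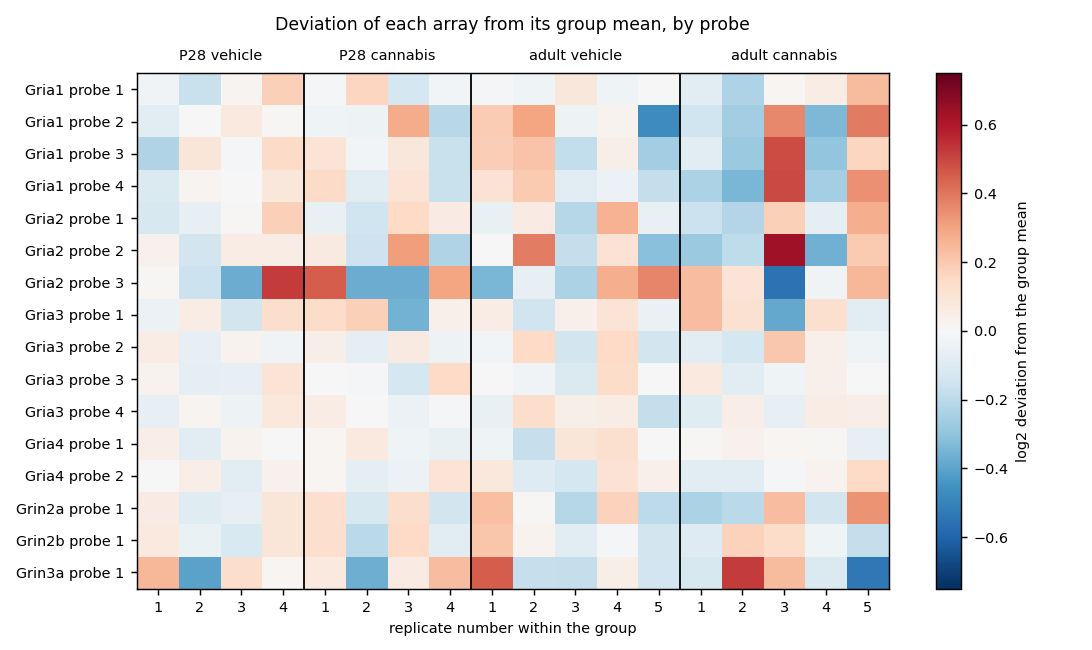
Deviation of each array (columns, 18 arrays by group and replicate) from its group mean, in log2 units, for the 16 receptor subunit probes above background (rows). Probes 2 to 4 of Gria1, probe 2 of Gria2 and the Grin2a probe share their colours array by array, and probe 1 of Gria3 tends to the opposite colour.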

How the data were processed

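Hippocampal RNA of 18 samples was measured on Illumina bead arrays. The values used are the authors' deposited log2 intensities. All columns share 1 distribution (median 6.86, from 6.50 to 15.08), so the arrays had been normalized to each other; the submitters' processing notes name Partek, and the steps are not given in the sources used here. Another 72 per-sample columns, named by slide position, match no label and were not used, so slides and detection p-values were not modelled.

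A probe was kept if it exceeded 6.98 (peak of unexpressed probes at 6.77 plus 3 SD, SD 0.0702) in at least 4 arrays, which left 18249 of 45281 probes. Symbols come from the platform annotation (34885 probes with 1 symbol, 18 with several, 10378 unnamed; 2596 of the kept probes are unnamed), with 10 updated through RefSeq (GRCm38.p6). limma 3.58.1 in R 4.3.3 fitted 4 group means over 18 arrays (14 residual and 3.93 prior degrees of freedom), with 7 contrasts and 2-sided moderated tests adjusted by Benjamini-Hochberg at 0.05, and was tested on simulated data. The number of arrays limits the precision. Arrays of a group correlated at 0.981 to 0.995, with no duplicates.

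The members, gene lists and tests were chosen with earlier results of these data known. Named list genes are those past the threshold or, where none passed, those with the smallest p. Marker lists covered excitatory neurons, interneurons, oligodendrocytes and their precursors, choroid plexus and immature neurons. Some marker genes are not reported here. At P28, samples of the same replicate number deviated together (correlations 0.196, 0.339, 0.383 and 0.534) and were taken as pairs in an alternative fit, though no label states a pairing. The correlations were −0.151 to 0.498 in adults, 0.07 to 0.574 between ages in vehicle mice and −0.08 to 0.641 in cannabis mice. In these comparisons not every pair exceeded 0.1, although replicates 4 and 5 stood apart from 1 to 3. The main fit assumed no pairing. Alternatives covered filter, prior, array weights, block, probe averaging, normexp, replicate sets and leaving out each array.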

Additional observations from a re-analysis of the deposited data

Results flagged for a closer look

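In 3 of 64 sets of a member probe and a group, 1 array lay far from the rest by Dixon's 95% criterion for the gap to the nearest array, at which chance marks about 1 in 20 sets. Gria1 in adult vehicle mice was highest in replicate 3, at 12.78, with the next array at 12.69, a gap of 0.716 of the group's range. The second probe of Gria2 in P28 vehicle mice was lowest in replicate 2, at 10.26, with the next at 10.43, a gap of 0.875 of the range. Gria4 in adult cannabis mice was lowest in replicate 5, at 6.92, under the background level, with the next at 6.99, a gap of 0.727 of the range. None of these members was called by its brightest probe with or without the array.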

How the results depend on the processing

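In the 7 comparisons no member was called under any alternative that gave a value: of 1393 values, 0 passed an adjusted p of 0.05 in limma, and the lowest was 0.0587 (Gria2, age averaged over treatments, leaving out 1 array). The estimate changed sign in 64 of these, 32 of them among 882 that left out 1 array, 13 within replicates 4 and 5 and 9 within replicates 1 to 3. With the replicate number as a block (replicate block), 0 members were called in each comparison, and no call of a member changed. Gria4 has no value where a probe had to exceed background in all 18 arrays.

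Counts over all probes moved more. The averaged age comparison called 906 probes, 521 to 1190 leaving out 1 array (521 to 595 without P28 vehicle replicate 1, 2 or 3, P28 cannabis replicate 4 or adult cannabis replicate 5), 183 within replicates 1 to 3, 12 within replicates 4 and 5, 1339 with the replicate sets as a term and 1378 with array weights. The vehicle age comparison called 195 (28 to 317 leaving out 1 array, from 0 within replicates 4 and 5 to 850 with array weights, 359 with the block). The cannabis age comparison called 5 (0 to 102 leaving out 1 array, 53 with the block). Cannabis comparisons called 0 (at P28 up to 11 leaving out 1 array), and up to 16 at P28, 1 in adults and 7 averaged within replicates 4 and 5, where the interaction called 12; this set holds 1 array of each P28 group, assumed to vary like the adults. Nptx1 kept its call in 8 of 28 alternatives (0.27 to 0.54). The cause was not tested. Low signal limits Gria4, Grin2c and Grin2d most.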
